A study of Mus musculus with 13 samples.

Results

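Matrix metalloproteinases (Mmp), ADAMTS proteases (Adamts) and tissue inhibitors of metalloproteinases (Timp) were followed in single cells of mouse liver during cholangitis. All genes of the count tables whose symbols name a numbered member of these families were taken, which gave 46 of 55353 genes: 23 Mmp, 19 Adamts and 4 Timp genes. Each of the 46 had at least 1 unique molecular identifier (UMI, 1 counted transcript) in the cells of the atlas, and 10 had fewer than 100.

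Male C57BL/6J mice of 6 to 12 weeks were fed chow that held DDC (3,5-diethoxycarbonyl-1,4-dihydrocollidine) at 0.1%, a xenobiotic that injures bile ducts, for 3, 5, 9, 19 or 25 days (D3 to D25), and control livers (D0) had no DDC. At each day 1 library was made by protocol A, which sorted immune cells, epithelium, endothelium and retinoid-autofluorescent cells, and 1 by protocol B, which sorted live cells of a stellate cell preparation, Itgax+ Cd64- immune cells, epithelium and T cells. These 12 libraries form the atlas, and 1 further library (STOP, protocol B) came from mice with 7 days of normal chow after about 19 days of DDC; the protocol B library set with D19 is labelled day 18. The labels do not tie libraries to animals, so the error below is the spread between libraries, and the sorts set how many cells of a type were caught. D0 is called steady state (2 libraries), D3 and D5 onset (4), and D9 to D25 progression (6).

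MMPs cut collagens, elastin, basement membrane and cell surface proteins, and most are secreted as inactive precursors while a few are fixed to the membrane. ADAMTS proteases cut proteoglycans such as versican and aggrecan or trim procollagen, and TIMPs bind the active site of MMPs and block it. In the liver these families are best known from the turnover of scar matrix laid down by stellate cells and portal fibroblasts, and from the passage of leukocytes through vessel walls.

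Barcodes with at least 1500 UMIs were taken as cells (95563, of which 87083 are in the atlas), with 29307190 to 108602421 UMIs per library. Libraries shared at most 0.519% of the smaller library's cell barcodes. Cells were clustered without the 46 members and named by fixed marker lists: 5835 atlas cells were biliary epithelial cell (BEC)-like, 16768 liver sinusoidal endothelial cell (LSEC)-like, 4018 neutrophil-like, 11567 macrophage-like, 12071 dendritic cell (DC)-like and 1364 fibroblast-like. In each of these types the summed level of its own markers was above that in the other 5. The same lists named the clusters, so this describes the types and does not check their names. Levels are counts per 1000000 UMIs (CPM) of a type in a library, over libraries with at least 20 of its cells. D0 is thinly covered for BEC-like and fibroblast-like cells, with 1 library each, and fibroblast-like cells reached 20 cells in 7 of 12 libraries. LSEC markers were found in other types, most in fibroblast-like cells (a mean sum of 1997 CPM against 10097 CPM in LSEC-like cells), and are given below beside values that moved between the same libraries. Such sums do not separate RNA of LSEC from a type's own expression of the listed genes, which include Stab1, Fcgr2b and Lyve1.

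A large share of the Mmp family lies side by side. The 10 genes Mmp13, Mmp12, Mmp1b, Mmp3, Mmp1a, Mmp10, Mmp8, Mmp27, Mmp20 and Mmp7 cover 427 kb of chromosome 9 (GRCm38, 7272514 to 7699585). The promoters of 5 of them are shown because these genes were highest in 4 different cell types. Each runs from 250 bases before to 50 bases after the start site (RefSeq, GRCm38.p6), 5′ to 3′ on the gene's own strand, which is the plus strand for all of them. Capitals mark the AP-1 motif TGANTCA and the TATA box motif TATAAA, searched on both strands, which do not overlap each other here.
Mmp13, chr9:7272264-7272563: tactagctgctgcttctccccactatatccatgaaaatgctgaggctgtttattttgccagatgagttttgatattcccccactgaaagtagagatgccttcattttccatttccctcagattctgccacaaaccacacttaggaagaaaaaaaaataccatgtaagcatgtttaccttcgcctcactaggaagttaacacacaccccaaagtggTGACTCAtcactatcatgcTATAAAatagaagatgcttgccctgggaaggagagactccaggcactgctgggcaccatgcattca
Mmp12, chr9:7347124-7347423: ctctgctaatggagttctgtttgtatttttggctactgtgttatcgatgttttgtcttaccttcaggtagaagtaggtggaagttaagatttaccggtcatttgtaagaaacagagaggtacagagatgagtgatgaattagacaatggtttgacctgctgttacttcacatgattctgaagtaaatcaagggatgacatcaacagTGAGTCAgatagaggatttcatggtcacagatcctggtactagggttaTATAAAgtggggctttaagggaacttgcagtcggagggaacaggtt
Mmp3, chr9:7445572-7445871: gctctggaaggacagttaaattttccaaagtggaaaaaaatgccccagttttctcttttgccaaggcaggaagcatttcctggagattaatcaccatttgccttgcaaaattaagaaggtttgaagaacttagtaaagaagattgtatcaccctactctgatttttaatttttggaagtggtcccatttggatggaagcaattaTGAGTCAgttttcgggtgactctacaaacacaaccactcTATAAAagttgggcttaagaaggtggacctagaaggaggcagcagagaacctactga
Mmp8, chr9:7558179-7558478: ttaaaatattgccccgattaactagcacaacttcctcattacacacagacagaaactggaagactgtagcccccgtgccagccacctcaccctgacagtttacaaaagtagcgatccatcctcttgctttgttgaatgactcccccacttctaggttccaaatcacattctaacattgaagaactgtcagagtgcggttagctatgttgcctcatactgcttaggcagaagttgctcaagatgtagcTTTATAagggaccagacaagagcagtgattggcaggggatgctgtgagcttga
Mmp7, chr9:7691840-7692139: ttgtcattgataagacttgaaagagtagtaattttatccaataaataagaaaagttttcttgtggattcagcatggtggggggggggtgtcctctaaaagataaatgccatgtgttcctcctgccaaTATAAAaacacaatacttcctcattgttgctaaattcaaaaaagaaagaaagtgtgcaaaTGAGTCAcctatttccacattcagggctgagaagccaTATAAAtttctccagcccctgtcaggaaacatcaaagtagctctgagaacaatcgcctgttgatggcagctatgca

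The AP-1 motif began 35 bases before the start site in Mmp13, 44 in Mmp12, 46 in Mmp3 and 63 in Mmp7, and was not in the Mmp8 window. RefSeq lists a second promoter for Mmp12 (chr9:7344147-7344446) and for Mmp7 (chr9:7692091-7692390), and neither of these holds the AP-1 or the TATA box motif. Promoters were listed for 32 of the 46 members (35 promoters), and the motif stood in those of 8 members, Mmp1a, Mmp1b, Mmp3, Mmp7, Mmp10, Mmp12, Mmp13 and Mmp20. All 8 are among the 10 genes of chromosome 9, and none of the 22 listed members elsewhere had it. Of all 32851 listed promoters of the same length, 7.81% held it. The TATA box motif stood in 11 members, among them 9 of the 10 genes of the run, against 13.6% of all promoters. In the windows shown it lay 16 bases before the start site in Mmp13, 7 in Mmp3 and 3 in Mmp8. It lay 123 and 26 bases before it in Mmp7, and 4 bases after it in Mmp12. The ETS motif GAGGAAG stood in 5 members (Mmp7, Mmp8, Mmp12, Mmp25 and Adamts13) against 13.6% of all. The exons of 13 members overlap those of a gene on the other strand (Mmp12 with Mmp1b, Mmp7 with AV064505, Adamts7 with Tbc1d2b, Adamts9 with A730049H05Rik and Timp3 with Syn3 among them), and whether counting used the strand is not given in the sources used here. Sharing the motif did not go with sharing a cell type: macrophage-like cells had the highest level of Mmp12 and Mmp13, fibroblast-like cells that of Mmp3, and BEC-like cells that of Mmp7.

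**Figure D1:**
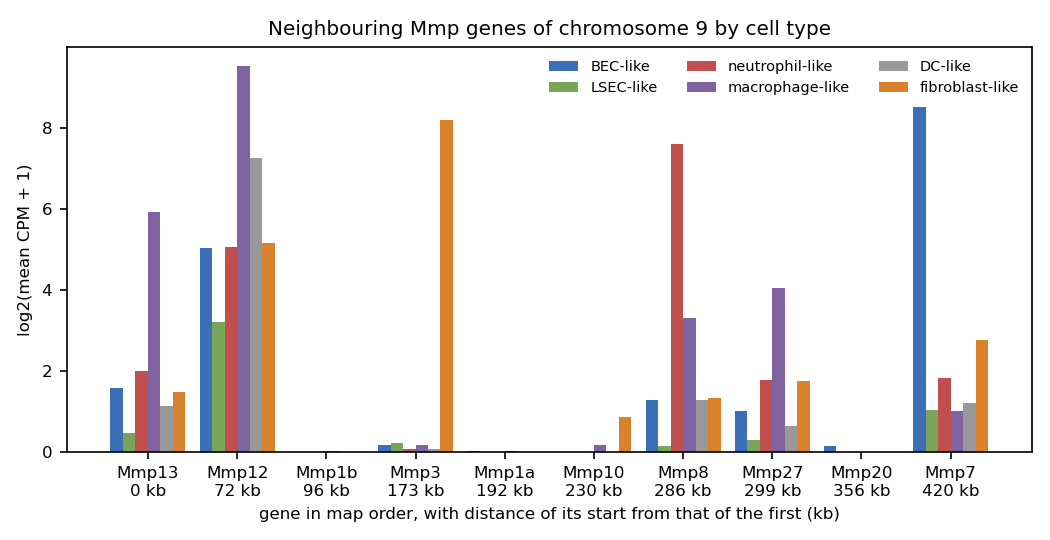
Bars give the mean level over atlas libraries, as log2(CPM + 1), of the 10 neighbouring Mmp genes in each of the 6 cell types, in map order with the distance of each gene's start from that of Mmp13. The highest bar belongs to macrophage-like cells for Mmp13 and Mmp12, to fibroblast-like cells for Mmp3, to neutrophil-like cells for Mmp8 and to BEC-like cells for Mmp7, and Mmp1b, Mmp1a and Mmp20 are near 0 throughout.

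Where each protease and inhibitor was found was the first question. By level, 24 members are described singly: the 4 Timp genes and the 20 Mmp and Adamts genes with a mean of at least 20 CPM in their highest type. Adamts15 (20.5 CPM) was just inside this limit and Mmp27 (15.4 CPM in macrophage-like cells) just outside. The other 22 members had 1 to 2368 UMIs in the atlas, with a median of 166. Of members at 20 CPM or more, 2 were highest in BEC-like, 3 in LSEC-like, 3 in neutrophil-like, 2 in macrophage-like and 12 in fibroblast-like cells, and none in DC-like cells. CPM compare a gene between cells and not different genes with each other.

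**Figure D2:**
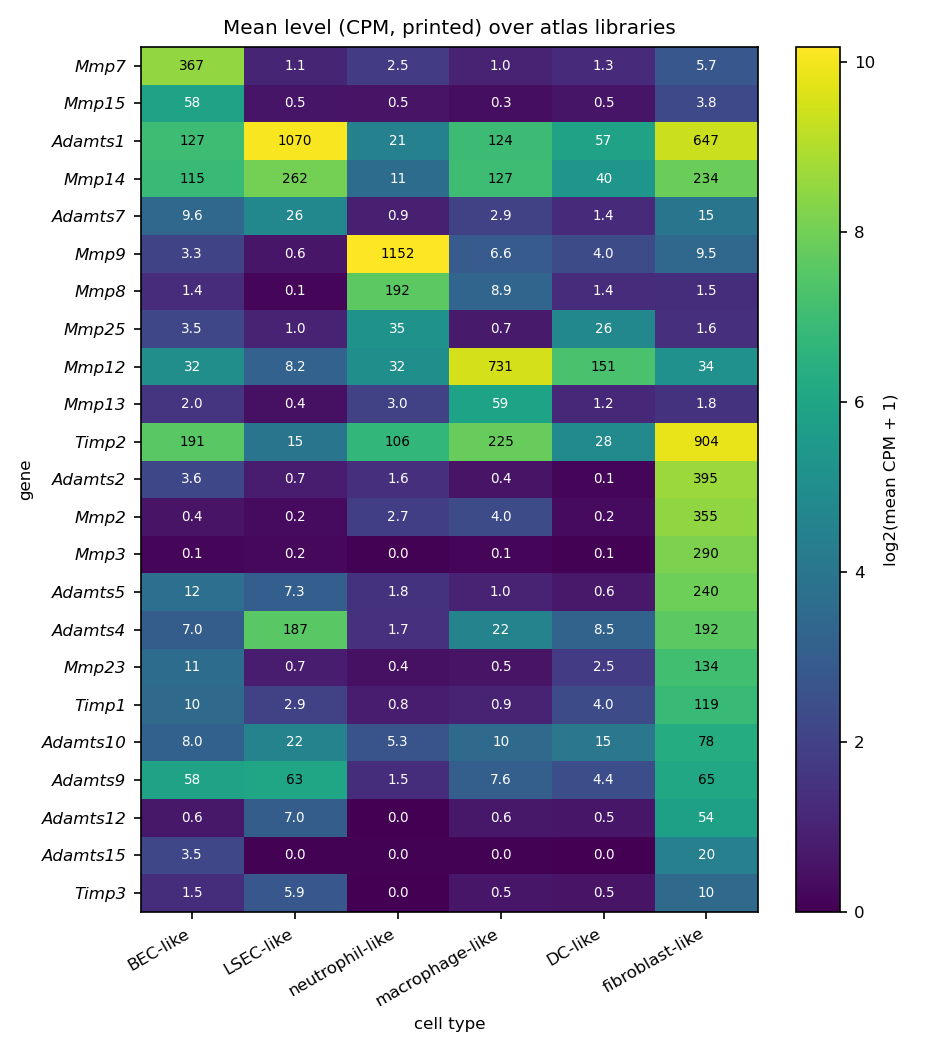
Rows are the described members other than Timp4 and columns the 6 cell types; the number printed is the mean CPM over atlas libraries and the colour is log2(mean CPM + 1). Mmp9 is at 1152 in neutrophil-like cells and at 9.49 or less in the other 5 types, and Mmp2, Mmp3 and Adamts2 stay under 5 CPM in the 5 types other than fibroblast-like cells.

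Several proteases were nearly private to 1 of the 6 types. Mmp9, gelatinase B, reached 1152 ± 323 CPM (SD, n = 11 libraries) in neutrophil-like cells against 9.49 CPM in the next type. Mmp3, stromelysin, reached 290 ± 219 CPM (SD, n = 7) in fibroblast-like cells against 0.153 CPM in the next. Mmp7, matrilysin, a protease of mucosal and ductal epithelium, reached 367 ± 191 CPM (SD, n = 9) in BEC-like cells against 5.72 CPM in the next. These genes differ from the broadly found members below by how steeply they drop after their highest type.

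Mmp2 (gelatinase A, 355 ± 173 CPM) and Adamts2, which trims the amino end of procollagen (395 ± 184 CPM), were likewise fibroblast-like genes, with 4.04 and 3.62 CPM in the next type. Mmp15, a membrane-bound MMP, stood at 57.7 ± 20.9 CPM in BEC-like cells against 3.77 CPM. Mmp8, the neutrophil collagenase, stood at 192 ± 184 CPM in neutrophil-like cells against 8.94 CPM in macrophage-like cells. Mmp13, the main interstitial collagenase of the mouse, stood at 59.4 ± 57.5 CPM in macrophage-like cells against 2.97 CPM. For Mmp8 and Mmp13 the spread between libraries was nearly as large as the mean. Among classes outside the 6 types, monocyte-like cells held 82.1 CPM of Mmp8 and 42.8 CPM of Mmp9, mesothelial-like cells 75.3 CPM of Adamts2 and hepatocyte-like cells 17.7 CPM of Mmp7. A median of 19.6% of monocyte-like cells held an Mmp8 UMI (8.44% thinned to 1500 UMIs) against 13.99% of neutrophil-like cells (9.90% thinned), at median depths of 5592 and 2357 UMIs, and the ranges over libraries overlapped.

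A second set was shared by several types. Mmp14, a membrane-bound MMP that activates the Mmp2 precursor, averaged 262 CPM in LSEC-like, 234 in fibroblast-like, 127 in macrophage-like and 115 in BEC-like cells. The ranges of Mmp14 in LSEC-like and fibroblast-like cells overlapped, so their order is not resolved. Adamts1, which cuts versican, averaged 1070 ± 241 CPM in LSEC-like and 647 CPM in fibroblast-like cells. Adamts4 averaged 192 CPM in fibroblast-like and 187 CPM in LSEC-like cells, and Adamts9 64.9, 63.2 and 57.7 CPM in fibroblast-like, LSEC-like and BEC-like cells; these neighbours differ by less than their spread. Adamts9 was higher still in lymphatic endothelial-like cells, a class outside the 6 types, with 87.3 ± 39.8 CPM (SD, n = 5). The inhibitor Timp2, which also takes part in the activation of Mmp2 on the cell surface, averaged 904 ± 429 CPM in fibroblast-like, 225 in macrophage-like, 191 in BEC-like and 106 in neutrophil-like cells, and 14.6 in LSEC-like cells.

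Timp1 averaged 119 ± 119 CPM in fibroblast-like and 10.4 CPM in BEC-like cells, Timp3 10.4 and 5.86 CPM in fibroblast-like and LSEC-like cells, and Timp4 had 4 UMIs in all. Of 89955 Timp UMIs in the atlas, 83874 were counted for Timp2.

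Each type was compared with the mean of the other 5 in edgeR's quasi-likelihood test with the library as a block; 28 members passed the filter on low counts in this fit. In fibroblast-like cells 21 members were higher and 2 lower (of 13808 genes 52.2% were called, 27.1% higher and 25.1% lower). The median log2 difference was 2.87. Adamts2 (8.67 ± 0.20 SE, adjusted p = 4.7e-40), Mmp2 (8.65 ± 0.19, adjusted p = 7.7e-41) and Adamts15 (7.19 ± 0.31, adjusted p = 1.7e-26) led. The filter used the same counts as the test, so a member could pass it through its height in fibroblast-like cells. The count and the median therefore hold for the 28 members that passed and not for all 46. No enrichment of the families in fibroblast-like cells is read from them. In LSEC-like cells 8 were higher and 15 lower (background 76.2%, 33.5% higher and 42.7% lower), and the 8 were Adamts1, Adamts4, Adamts7, Adamts9, Adamts10, Adamts12, Mmp14 and Timp3.

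In BEC-like cells 11 were higher and 7 lower (background 71.3%, 41.7% higher and 29.6% lower), led by Mmp7 (7.16 ± 0.22) and Mmp15 (6.04 ± 0.15). In macrophage-like cells 8 were higher and 13 lower (60.3%, 32.3% higher and 28% lower), led by Mmp13 (5.54 ± 0.24) and Mmp12, the macrophage elastase (5.14 ± 0.27). In neutrophil-like cells only Mmp9 (9.03 ± 0.24), Mmp8 (7.52 ± 0.33) and Mmp25, a leukocyte MMP anchored to the membrane (4.83 ± 0.28), were higher and 15 were lower (69.2%, 27.3% higher and 42% lower). In DC-like cells 3 were higher, Mmp12, Mmp25 and Adamts6, and 16 lower (70.3%, 35.7% higher and 34.5% lower). Nothing is read about the families as such from counts near the background. The types were drawn from the same cells, so these tests describe how far levels differ and do not define the types.

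Shares of cells with a UMI gave the same picture within their depth. With cells thinned to 1500 UMIs, a median of 68.0% of neutrophil-like cells over libraries held an Mmp9 UMI (76.8% unthinned) against 0.0495% of LSEC-like cells (0.23% unthinned), a type that should lack the gene. T-like cells stood above that level, with 3.05% (5.97% unthinned) and 36.1 CPM, so their share is no background level for Mmp9. For Mmp7 the values were 30.2% of BEC-like cells (61.0% unthinned) against 0.100% of T-like cells, and for Mmp12 24.9% of macrophage-like cells (41.4%) against 0.449% of T-like cells. Other types stood above T-like cells when thinned. Hepatocyte-like cells had 1.32% for Mmp7 and 2.19% for Mmp12, and neutrophil-like cells 0.248% and 1.43%. Median depths were 13953 UMIs in BEC-like, 8318 in macrophage-like, 2357 in neutrophil-like, 5249 in LSEC-like and 4328 in T-like cells.

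Free RNA in barcodes of 10 to 500 UMIs was counted for the same genes. It held a median of 117 CPM of Mmp12 over atlas libraries (19.6 to 550 CPM), 80.9 CPM of Timp2, 70.1 of Adamts1, 43.1 of Mmp14 and 9.30 of Mmp9. The Mmp12 levels of BEC-like (31.7 CPM), neutrophil-like (32.4 CPM) and fibroblast-like cells (34.5 CPM) lie below that median, and the part of free RNA in them was not tested.

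Levels also differed within types, between clusters. Mmp7 stood at 678 CPM in the BEC-like cluster led by Cxcl5 and at 76.1 CPM in the one led by Ces1d, 60.0% of whose cells came from D0 A. Mmp8 stood at 310 CPM in the neutrophil-like cluster led by Retnlg and at 6.96 CPM in the one led by Siglecf, whereas Mmp9 was at 1240 and 1312 CPM in them. The collagenase and the gelatinase of neutrophils were thus not spread alike over neutrophil-like cells.

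Mmp3 stood at 614 CPM in the fibroblast-like cluster led by Clec3b and Mfap5 and at 20.9 CPM in the one led by Fbn2, Col1a1 and the stellate cell marker Colec11, and Timp2 at 1873 and 648 CPM in them. Mmp14 went the other way there, with 172 and 321 CPM. Mmp25 stood at 129 CPM in the mature DC-like cluster led by Il12b, and at 7.04 CPM or less in each cDC1-like and cDC2-like cluster. Adamts1 stood at 1331 CPM in the LSEC-like cluster led by Art3 and at 355 CPM in the one led by Cyp4b1, while Mmp14 was at 255 and 296 CPM. These clusters were picked for their values and are given as a description.

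The diet comparison asked which members changed between D0 and DDC livers within a type. Counts of a type were summed per library and tested in edgeR's quasi-likelihood test with the protocol as a term, and p-values were adjusted over all genes tested by the Benjamini-Hochberg method. Log2 fold changes are given only for called members and for those described members with an unadjusted p under 0.05 and a mean of at least 5 CPM in the type.

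In macrophage-like cells 3 of 17 members tested were called, where 6.71% of all genes were (2.95% higher and 3.76% lower). Mmp14 rose, and Mmp9 and Mmp13 fell. Mmp14 stood at 66.3 and 55.8 CPM in the D0 libraries (A and B), at 113, 169, 167 and 119 CPM at onset, and at 95.5 to 194 CPM (median 140) in progression. The D0 libraries lay below every DDC library. The log2 fold change was 1.24 ± 0.25 (SE, adjusted p = 0.011), 1.12 with adjusted p = 0.10 without D0 A. The 9 LSEC markers, a type with more Mmp14, were all present in macrophage-like cells and summed to 369.8 to 1465 CPM at D0, 1000.5 to 3049.8 CPM at onset and 835 to 2238 CPM in progression, and their part was not tested.

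Mmp9 stood at 23.8 and 18.6 CPM at D0, at 4.00, 0.333, 3.50 and 1.53 CPM at onset and at 1.46 to 8.28 CPM (median 4.28) in progression, with no overlap (-2.61 ± 0.47, adjusted p = 0.0058). Leaving out 1 library gave -3.40 to -2.04. Neutrophil markers (Mmp genes are not among them) summed to 63.5 to 231 CPM at D0, 42.7 to 133 CPM at onset and 49.9 to 394 CPM in progression in these cells, with 10 to 12 of 12 markers present, and their part was not tested. Free RNA held 7.71 CPM of Mmp9 in D0 A, 21.6 in D0 B and 1.90 to 18.3 CPM in the DDC libraries, so that the level in macrophage-like cells was above that of free RNA in D0 A and below it in D0 B. In cells without markers of another lineage the value was -1.56 with adjusted p = 0.14.

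Mmp13 stood at 77.1 and 235 CPM at D0, at 50.02, 37.6, 56.2 and 43.7 CPM at onset and at 15.4 to 49.4 CPM (median 38.9) in progression. The D0 libraries were again apart from the others, and D0 B was well above D0 A. The log2 fold change was -1.94 ± 0.42 (adjusted p = 0.015), and -0.52 with adjusted p = 0.51 without D0 B.

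Mmp12 stood at 118 and 387 CPM at D0, 267, 483, 682 and 560 CPM at onset, and 566 to 1405 CPM (median 1066) in progression. Each DDC library exceeded the D0 library of its own protocol, although D0 B exceeded D3 A. The log2 fold change was 1.58 ± 0.46 with adjusted p = 0.054, and DESeq2 called it (1.54, adjusted p = 0.0038). It rested on the D0 libraries, with 0.82 (adjusted p = 0.35) without D0 A and 2.76 (0.014) without D0 B, and passed the threshold also without D9 A (0.044) or D25 A (0.049).

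Macrophage-like cells of D0 A, of D0 B and of DDC livers came largely from different clusters, so the change was also fitted within groups of clusters. These groups were chosen after the data were seen, and each pools clusters of unlike levels. The clusters led by Clec4f and by Vsig4 had 1013 and 491 CPM of Mmp12, and 1275 and 4792.5 CPM of LSEC markers. Those led by Gpnmb and by Cx3cr1 had 938 and 358 CPM of Mmp12, and 607 and 4053 CPM of LSEC markers. Shifts between the clusters of a group were not tested. In the clusters with the Kupffer cell marker Clec4f among their leading genes, Mmp12 stood at 64.6 and 0 CPM at D0 (427 and 27 cells), at 300 to 1266 CPM at onset and at 833 to 3053 CPM in progression. In these clusters Mmp12 rose by 4.47 ± 0.61 (log2, adjusted p = 0.00084) and Mmp14 by 1.31 ± 0.32 (adjusted p = 0.041), where 2.06% of genes were called. LSEC markers summed to 697 to 1488 CPM at D0, 1575 to 3325 CPM at onset and 329 to 2887 CPM in progression in these clusters. In the same clusters Mmp13 had the opposite sign to that in all macrophage-like cells, with 21.3 and 0 CPM at D0 and 14.3 to 144 CPM in DDC libraries (1.74 ± 0.64, adjusted p = 0.16). Mmp9 stood at 12.4 and 0 CPM at D0 and 0 to 12.2 CPM under DDC there (-0.49 ± 0.52, adjusted p = 0.68).

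In the clusters with Gpnmb among their leading genes, a marker of lipid-associated macrophages, Mmp9 fell from 78.6 and 80.1 CPM at D0 (64 and 32 cells) to 0 to 6.97 CPM (-4.87 ± 0.64, adjusted p = 0.0042; background 0.704%). Mmp13 stood at 127 and 142 CPM at D0 and at 10.2 to 48.3 CPM under DDC (-1.67 ± 0.50, adjusted p = 0.12), and Mmp14 gave 1.16 ± 0.30 (adjusted p = 0.087). For DDC against D0 Mmp12 gave 1.21 ± 0.39 here (adjusted p = 0.15). Mmp12 in these cells was higher in progression than at onset, 461 to 1393 against 224 to 412 CPM (1.44 ± 0.29, adjusted p = 0.043; background 0.438%). A cluster outside both groups, led by H2-M2, held the highest Mmp13 of any macrophage-like cluster, 313 CPM. It had 213 cells, 62.9% of them from D0 B, and D0 B held 193 macrophage-like cells in all. Most macrophage-like cells of D0 B thus lay in this cluster and outside both fitted groups. Its part in the Mmp13 change of all macrophage-like cells was not tested.

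**Figure D3:**
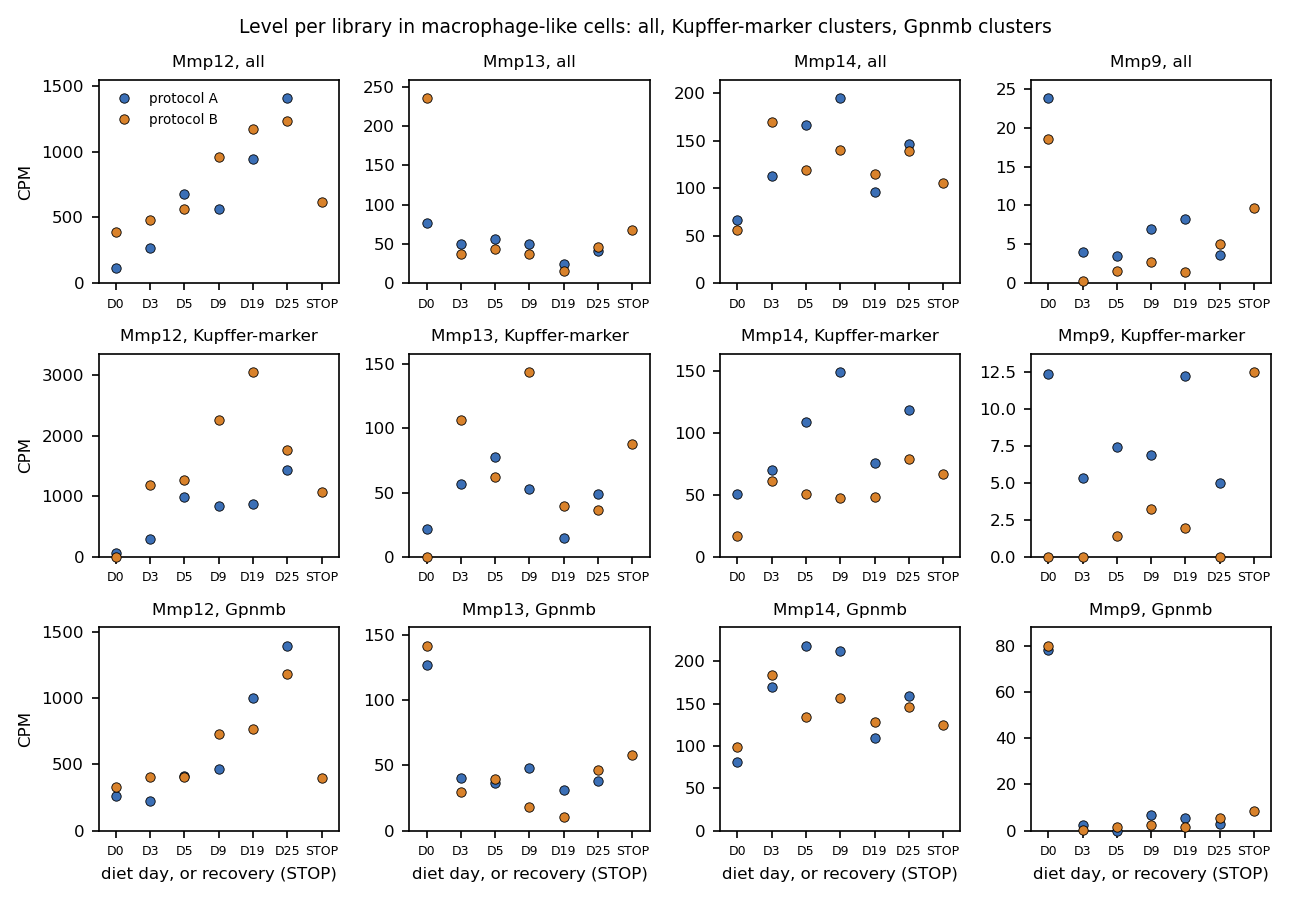
Points are libraries (blue protocol A, orange protocol B) by diet day or STOP, and the vertical axes give CPM of Mmp12, Mmp13, Mmp14 and Mmp9. Rows are all macrophage-like cells, the Kupffer-marker clusters and the Gpnmb clusters. Mmp12 at D0 is 64.6 CPM or less in the Kupffer-marker row and 263 to 327 CPM in the Gpnmb row, and Mmp9 at D0 is high in the Gpnmb row.

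In DC-like cells 4 of 22 members tested rose and none fell (background 5.54%, 3.02% higher and 2.51% lower). Mmp14 stood at 25.7 and 4.30 CPM at D0, at 46.5, 28.2, 52.1 and 35.6 CPM at onset and at 25.7 to 74.7 CPM in progression (1.99 ± 0.33, adjusted p = 0.0046). Adamts1 stood at 13.8 and 7.52 CPM at D0 and at 31.9 to 147 CPM under DDC (2.20 ± 0.39, adjusted p = 0.0057). Adamts4 had 2 UMIs in the D0 libraries together and stood at 3.21 to 22.3 CPM under DDC (5.56 ± 1.21, adjusted p = 0.016; the ratio of pooled counts was 89.5, exact 95% interval 24.7 to 740). Adamts9 stood at 3.95 and 0.379 CPM at D0 and at 1.87 to 8.82 CPM under DDC (2.05 ± 0.56, adjusted p = 0.045). D0 A held 63 DC-like cells and D0 B 2295.

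All 4 are genes that LSEC-like cells carry at far higher levels, and LSEC markers moved with them. The 9 LSEC markers, all present, summed to 161 to 428 CPM at D0, 477 to 1375 CPM at onset and 390 to 1078 CPM in progression in DC-like cells. In the cDC1-like cluster with the most of them (3305 CPM) Adamts1 was at 366 CPM, and in the largest cDC1-like cluster (87.1 CPM of LSEC markers) at 3.83 CPM. Set against free RNA of the same library, Mmp14 was higher in D5 B (35.6 against 19.2 CPM) and lower in D3 A (46.5 against 87.2 CPM). In D0 A and D0 B, Mmp14 lay below free RNA (71.0 and 10.5 CPM), and so did Adamts1 (386 and 49.6 CPM). Free RNA of protocol B held 19.2 to 45.7 CPM of Mmp14 under DDC. Over atlas libraries free RNA held 27.8 to 581 CPM of Adamts1, 1.05 to 40.1 CPM of Adamts4 and 0 to 21.6 CPM of Adamts9. The part of free RNA was not tested. With cells thinned to 1500 UMIs, a median of 4.17% of DC-like cells held an Mmp14 UMI and 2.82% an Adamts1 UMI, above T-like cells (0.393% and 0.342%) and below hepatocyte-like cells (4.23% and 5.71%). For Adamts4 the shares were 0.452%, 0% and 0.813% in the same order of types and for Adamts9 0.414%, 0% and 0.869%. None of the 4 was called without D0 B (log2 1.31 for Mmp14, 2.94 for Adamts1, 10.13 for Adamts4 and 0.999 for Adamts9), with doublets removed (1.93, 2.96, 5.16 and 2.23) or without the protocol term (2.02, 2.58, 5.91 and 2.40). In cells without markers of another lineage Mmp14 (1.94), Adamts1 (1.64) and Adamts4 (5.99) were not called. Adamts9 was also not called on leaving out any of 6 DDC libraries (D3 A, D5 A, D5 B, D9 A, D9 B or D25 A; 1.99 to 2.04, adjusted p 0.058 to 0.074). The part of LSEC RNA in these changes was not tested further.

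The 4 genes were also fitted by cDC type, with clusters grouped after the data were seen. In cDC2-like cells, whose LSEC markers summed to 162 CPM at D0 and 188 to 452 CPM under DDC, Mmp14 stood at 1.81 CPM in D0 B (871 cells) and at 22.5 to 69.3 CPM in the 10 DDC libraries, and gave 3.70 ± 0.62 (adjusted p = 0.0036; background 10%). Adamts1 was at 0 CPM in D0 B and at 1.29 to 24.5 CPM under DDC in the same cells, and was not called (adjusted p = 0.088). D0 A had too few cDC2-like cells, so D0 rests on 1 library, and DDC and that library cannot be told apart in this fit. In cDC1-like cells all 4 were called (background 10.1%), with Mmp14 at 3.52 and 4.21 CPM at D0 and 25.7 to 81.8 CPM under DDC. By cluster, Mmp14 was at 107 CPM in the cDC1-like cluster with the most LSEC markers (3305 CPM). In the cluster led by Ccl7, with 7858 CPM of macrophage markers, Mmp14 was at 90.5 CPM. The other cDC1-like clusters held 1.18 to 11.6 CPM of Mmp14, and the lowest had 93.4% of its cells from D0 B. LSEC markers in all cDC1-like cells summed to 161 to 522 CPM at D0, 715 to 1915 CPM at onset and 496 to 1746 CPM in progression. Macrophage markers summed to 63.4 to 284 CPM at D0 and 359 to 8715 CPM under DDC in cDC1-like cells, and to 154 CPM and 291 to 1772 CPM in cDC2-like cells. The part of these markers was not tested. Mmp12 of DC-like cells was at 69.1 and 32.1 CPM at D0 and 13.7 to 812 CPM under DDC, above free RNA of the same library in D0 A, D0 B, D19 A and D25 A and below it in the others.

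In BEC-like cells 1 of 29 members tested was called, with a background of 1.56% (0.527% higher and 1.03% lower). Adamts15, which cuts aggrecan and versican, fell from 14.6 CPM in D0 A to 3.35 and 2.63 CPM at onset and 0.919 to 2.79 CPM in progression (-2.73 ± 0.49, adjusted p = 0.033). D0 rested on 1 library of 792 cells, and the call was lost on leaving out any of 5 DDC libraries (D5 B, D9 A, D9 B, D19 B or D25 A; log2 -2.59 to -3.03, adjusted p 0.050 to 0.082). With doublets removed it gave -2.79 (adjusted p = 0.071) and in cells without markers of another lineage -2.92 (0.11). Within the cluster led by Ces1d the difference was -0.42. The D0 library is of protocol A and the onset libraries are of protocol B alone, so they share no protocol. The contrast weighs onset and progression equally. DDC and the D0 library cannot be told apart in this fit, nor in the other changes against D0 in BEC-like cells.

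Mmp7 stood at 57.8 CPM at D0, at 120 CPM in D3 B, 295 CPM in D5 B, and 316 to 613 CPM (median 463) in progression, so that no DDC library reached down to D0. Leaving out 1 library gave Mmp7 log2 values of 0.51 to 1.92 for progression against onset, and 2.32 to 3.02 for DDC against D0. The log2 fold change was 2.75 ± 0.60 with adjusted p = 0.054 (2.74 and 1.7e-05 in DESeq2), and progression against onset 1.04 ± 0.39 with adjusted p = 0.86. In the Ces1d cluster, which holds most D0 cells, Mmp7 was at 30.1 CPM at D0, 32.3 CPM in D3 B and 182 to 406 CPM in the later libraries (2.51 ± 0.89, adjusted p = 0.47).

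Timp1, the inhibitor best known as a marker of liver fibrosis, stood at 0.675 CPM at D0, 4.61 and 14.9 CPM at onset and 4.81 to 23.9 CPM in progression (4.87 ± 1.11, adjusted p = 0.061). Mmp14 stood at 88.7 CPM at D0, 87.1 and 84.2 CPM at onset and 110 to 144 CPM in progression (0.67 ± 0.22, adjusted p = 0.13). Mmp23 gave 1.70 ± 0.55 (adjusted p = 0.13), Adamts1 -0.95 ± 0.27 (0.10) and Adamts5 -1.49 ± 0.61 (0.20), each with D0 outside the range of the DDC libraries. Mmp15, the other BEC-like protease, stood at 101 CPM at D0 and 36.3 to 71.6 CPM under DDC, with an unadjusted p above 0.05. Mmp12 stood at 0.965 CPM at D0 and 8.28 to 112 CPM under DDC (4.30 ± 1.36, adjusted p = 0.12; 4.20 and 0.042 in DESeq2), in each library below its level in free RNA. Macrophage markers in BEC-like cells summed to 157 CPM at D0 and 350 to 1929 CPM under DDC, and hepatocyte markers to 6380 and 1236 to 3036 CPM. Both onset libraries lay below D0 for Mmp14, so its fitted value, adjusted for protocol, is above what the levels alone give. Within the Ces1d cluster Mmp14 gave 0.34, Adamts1 -0.47, Adamts5 -0.90 and Mmp12 1.90, with D0 again 1 library.

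In LSEC-like cells none of 12 members tested was called by edgeR (background 0.0853%, 0.0379% higher and 0.0474% lower). At an unadjusted p under 0.05 there were 5 (1113 of all 10553 genes), and 2 were called by DESeq2, Mmp14 and Adamts4 (background 1.54%). Mmp14 stood at 192 and 126 CPM at D0, 241, 344, 263 and 249 CPM at onset and 254 to 345 CPM (median 278) in progression, without overlap (0.93 ± 0.23, adjusted p = 0.14). Adamts4 stood at 62.7 and 28.2 CPM at D0, 162, 159, 196 and 206 CPM at onset and 96.7 to 644 CPM (median 158) in progression, again without overlap (2.22 ± 0.64, adjusted p = 0.23). Leaving out 1 library gave 1.74 to 3.04 for Adamts4. Adamts1 stood at 808 and 867 CPM at D0 and 846 to 1466 CPM under DDC, where the ranges overlapped (0.48 ± 0.22, adjusted p = 0.47). A cluster with both LSEC and hepatocyte markers was left unnamed. It held 2353 cells, 94.6% of them from D0 A, against 673 named LSEC-like cells in D0 A. The D0 A levels above therefore rest on a minor part of the cells with LSEC markers in that library. With the unnamed cluster Adamts1 gave 0.17, Mmp14 0.93 and Adamts4 1.58 (adjusted p = 0.34). Within the LSEC-like cluster led by Cyp4b1 Adamts1 stood at 154 and 224 CPM at D0 and 277 to 561 CPM in 8 DDC libraries (1.33 ± 0.32, adjusted p = 0.16), and Adamts4 gave 2.24 (0.066).

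**Figure D4:**
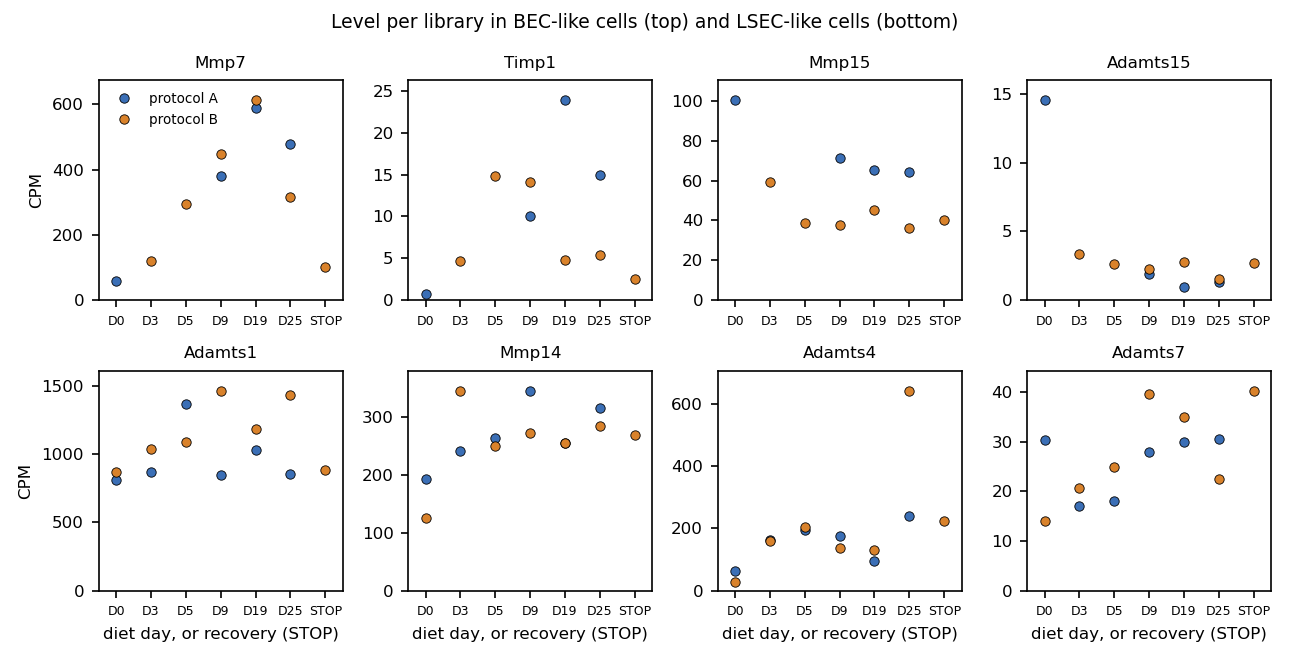
Points are libraries (blue protocol A, orange protocol B) by diet day or STOP, and vertical axes are CPM. In BEC-like cells (top) Mmp7 is at 57.8 CPM at D0, 316 to 613 CPM in progression and 103 CPM in STOP, and Adamts15 is highest at D0; in LSEC-like cells (bottom) Mmp14 and Adamts4 are lowest in the D0 libraries.

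In neutrophil-like cells none of 7 members tested was called (background 0.184%, 0.0168% higher and 0.168% lower), with 2 at an unadjusted p under 0.05 by edgeR (834 of all 5966 genes) and none called by DESeq2 (background 1.44%). Mmp8 stood at 552 and 239 CPM at D0, 465, 311 and 9.51 CPM at onset and 10.02 to 179 CPM (median 105) in progression (-1.74 ± 0.63, adjusted p = 0.23). Each DDC library was below the D0 library of its protocol, with 43 to 56 cells behind D0 B, D5 B and D9 B. Leaving out 1 library gave -2.45 to -1.21 for Mmp8. Within the Retnlg cluster Mmp8 was at 558 and 288 CPM at D0 and 117 to 470 CPM under DDC (-0.75 ± 0.34, adjusted p = 0.46). Timp2 stood at 164 and 173 CPM at D0 and 47.6 to 173 CPM under DDC (-0.94 ± 0.38, adjusted p = 0.27), and leaving out 1 library gave -1.77 to -0.35. Mmp9 showed no such course, with 1683 and 667 CPM at D0 and 700 to 1619 CPM under DDC.

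In fibroblast-like cells none of 29 members tested was called (background 0.00811%, all lower), with 6 at an unadjusted p under 0.05 by edgeR (1389 of all 12336 genes) and none called by DESeq2 (background 0.673%). Only 1 D0 library and 2 onset libraries of 31 and 39 cells stood behind this fit. Leaving out 1 library gave log2 values of 1.61 to 2.99 for Timp1 and -1.94 to -0.76 for Timp2. Timp1 stood at 15.6 CPM at D0, 10.5 and 49.7 CPM at D5, and 173, 78.8, 346 and 156 CPM at D9 A, D19 A, D25 A and D25 B (2.30 ± 0.95, adjusted p = 0.43). The 4 progression libraries were above the other 3. Timp2 stood at 1603 CPM at D0, 178 and 874 CPM at D5 and 685 to 1088 CPM in progression (-1.60 ± 0.57, adjusted p = 0.36). Within the cluster led by Fbn2, Col1a1 and Colec11 it gave -0.62 ± 0.54 (adjusted p = 0.70), and D0 A was the largest contributor to the Clec3b cluster, where Timp2 was high. In the same Fbn2 and Colec11 cluster Timp1 had no UMI at D0 (120 cells), and stood at 10.8 and 51.4 CPM at D5 and 104 to 321 CPM in progression (adjusted p = 0.22). Timp3 likewise had no UMI there at D0 and stood at 4.67 to 25.8 CPM under DDC (adjusted p = 0.36). Timp3 had 3 UMIs at D0 and 167 under DDC, 131 of them in D25 B, whereas D0 was protocol A alone. The ratio of pooled counts was 14.4 (exact 95% interval 4.84 to 70.4, counting error only), and the edgeR fit with the protocol term gave 2.46 ± 0.87 on the log2 scale (adjusted p = 0.36).

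**Figure D5:**
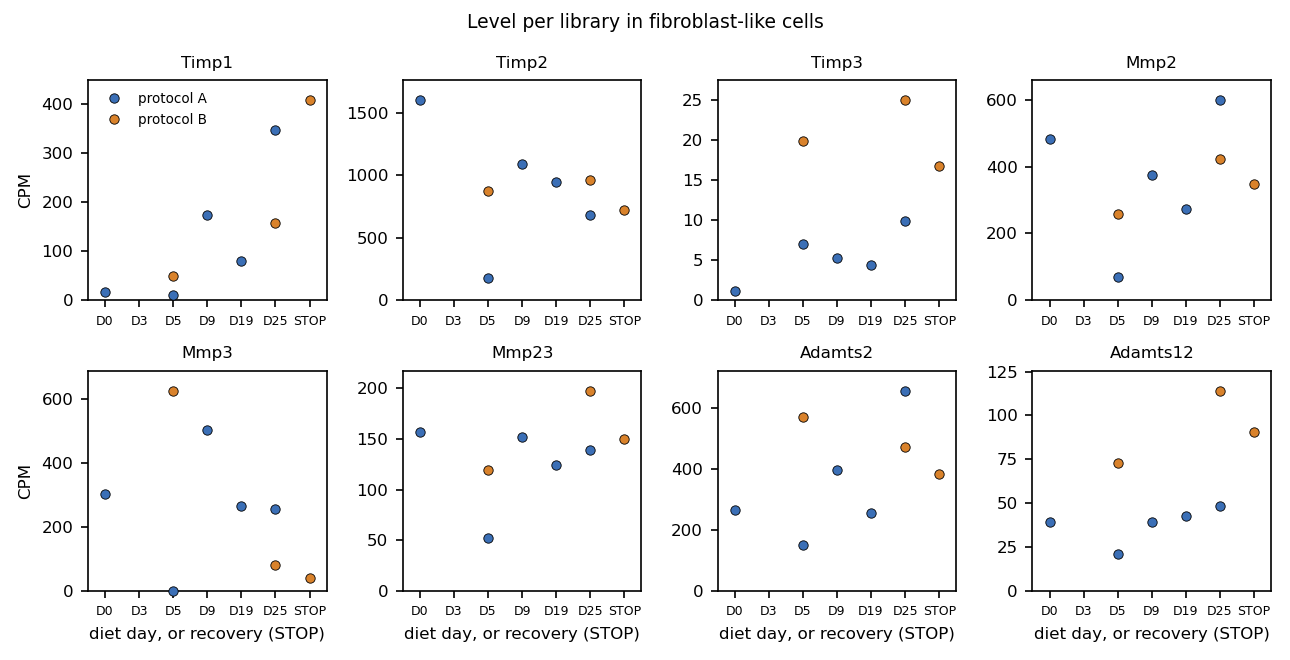
Points are libraries (blue protocol A, orange protocol B) by diet day or STOP, and vertical axes are CPM in fibroblast-like cells. Timp1 is at 78.8 to 346 CPM in progression and 408 CPM in STOP against 10.5 to 49.7 CPM before, and Timp2 is highest at D0 and lowest in D5 A.

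Progression was then compared with onset (6 against 4 libraries where all have cells). No member was called by edgeR in any of the 6 types, where the background was 0% in BEC-like and neutrophil-like, 0.0853% in LSEC-like (0.0474% higher, 0.0379% lower), 0.284% in macrophage-like (0.154% and 0.13%), 0.0218% in DC-like (0.00726% and 0.0145%) and 0.0405% in fibroblast-like cells (0.0324% and 0.00811%). At an unadjusted p under 0.05 there were 6 members in BEC-like, 3 in LSEC-like, 3 in neutrophil-like, 5 in macrophage-like, 5 in DC-like and 10 in fibroblast-like cells. Over all genes these counts were 912 of 15952, 906 of 10553, 812 of 5966, 1721 of 12329, 984 of 13765 and 1521 of 12336. DESeq2 called none in BEC-like (background 0.119%), LSEC-like (0.853%) and neutrophil-like cells (0.57%), 3 in macrophage-like (2.14%), 1 in DC-like (0.291%) and 4 in fibroblast-like cells (1.9%).

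The 4 that DESeq2 called in fibroblast-like cells were Timp1 (2.87 ± 0.81 by edgeR, adjusted p = 0.22), Mmp2 (1.88 ± 0.56, 0.24), Mmp23 (1.26 ± 0.32, 0.16) and Mmp12. Mmp2 stood at 69.9 and 258 CPM in the D5 libraries and at 375, 273, 600 and 423 CPM in progression, and at 483 CPM at D0. LSEC markers in fibroblast-like cells summed to 1522 CPM at D0, 983 to 5948 CPM at onset and 199 to 2089 CPM in progression. Macrophage markers summed to 1270.1, 99.3 to 454 and 358 to 2726 CPM in the same order and neutrophil markers to 198, 23.2 to 119 and 276 to 1593 CPM, and the part of these markers was not tested. Mmp12 is a gene of macrophage-like cells. Without D5 A Timp1 gave 1.78 and Mmp2 0.84, without D5 B 4.48 and 2.82, and without D25 B 4.46 and 2.80, and none of these was called. In macrophage-like cells Mmp12 gave 1.15 ± 0.34 (adjusted p = 0.15) and Timp2 0.58 ± 0.17 (0.15). Timp2 stood there at 141, 218, 140 and 202 CPM at onset and at 169 to 330 CPM (median 241) in progression, with overlapping ranges. Adamts7, which cuts cartilage oligomeric matrix protein, gave 0.65 ± 0.21 in LSEC-like cells (adjusted p = 0.37).

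The wider protease system was described by a list of 37 related genes: plasminogen activators, ADAM sheddases, membrane regulators of matrix proteases and protease inhibitors. In BEC-like cells 3 of 34 tested rose with DDC and none fell, against 1.56% of all genes. D0 was 1 library there, most of its cells from the Ces1d cluster, so DDC and that library cannot be told apart. Macrophage markers were higher and hepatocyte markers lower under DDC in the sums given above, and their part was not tested. Among the 3 were Plau, the urokinase plasminogen activator (4.31 ± 0.73, adjusted p = 0.028), and the sheddase Adam8 (2.30 ± 0.41, adjusted p = 0.032). In macrophage-like cells 5 of 25 rose and 2 fell by edgeR (background 6.71%). Adam8 (3.21 ± 0.40, adjusted p = 0.00052), the procollagen processing enhancer Pcolce (2.25 ± 0.50) and the leukocyte protease inhibitor Slpi (1.91 ± 0.42) were furthest. Lrp1 and Furin also rose, and Adamdec1 and Pcolce2 fell. Macrophage-like cells of D0 A, of D0 B and of DDC livers came largely from different clusters, and LSEC markers moved in the sums given above. Their part was not tested, and no fit within groups of clusters is given for these genes.

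In DC-like cells Adam9 alone of 30 rose (1.48 ± 0.31, adjusted p = 0.014 by edgeR, background 3.02% higher). LSEC and macrophage markers moved between the same DC-like libraries, and their part was not tested. None of 20, 14 and 32 genes tested was called in LSEC-like, neutrophil-like and fibroblast-like cells. Adam8 was also the only gene of the list called in progression against onset, in macrophage-like cells (1.41 ± 0.23, adjusted p = 0.019; 1 of 25, background 0.284%). Reck, an inhibitor of MMPs fixed to the membrane, averaged 49.9 CPM in fibroblast-like cells and 1.17 CPM or less in the other 5 types.

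Recovery was seen in 1 library, so STOP is set beside D19 B with counting intervals and no test. These intervals hold counting error alone, so differences between animals or sorts cannot be told apart from recovery. In BEC-like cells (575 and 547) Mmp7 stood at 103 CPM in STOP and 613 CPM in D19 B, a ratio of 0.167 (95% interval 0.157 to 0.178), and Timp1 at 2.47 and 4.81 CPM (0.513, 0.313 to 0.826). STOP lay below every DDC library for Mmp7 and above D0, and D19 B was the highest DDC library for it.

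In macrophage-like cells (253 and 734) Mmp12 stood at 618 and 1169 CPM (0.529, 0.502 to 0.557) and Mmp13 at 67.6 and 15.4 CPM (4.38, 3.49 to 5.52). Mmp14 gave 0.921 there (0.804 to 1.05) and 1.06 in LSEC-like cells (0.951 to 1.18), so no difference was resolved. In neutrophil-like cells (248 and 165) Mmp9 stood at 1540 and 700 CPM (2.20, 1.94 to 2.503). Adamts4 was higher in STOP in BEC-like (3.40, 2.69 to 4.33) and LSEC-like cells (1.74, 1.52 to 2.00). LSEC markers in BEC-like cells summed to 1729 CPM in STOP against 309.98 to 786 CPM in progression, and their part was not tested. For Mmp9 of neutrophil-like and Mmp13 of macrophage-like cells D19 B was the lowest DDC library. STOP lay within the range of the DDC libraries for that Mmp9, for Mmp12 in macrophage-like and for Adamts4 in LSEC-like cells. For Mmp13 in macrophage-like cells STOP lay above every DDC library. Fibroblast-like cells numbered 19 in D19 B and were not compared; in STOP (519 cells) Timp1 was at 408 CPM, above all atlas libraries, and Timp2 at 723 CPM.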

How the data were processed

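Droplet single-cell RNA libraries (13) of mouse liver were used. For every barcode the authors deposited the UMI count of each gene, from kallisto (version not given in the sources used here; the submitters' notes name GRCm38); no normalization had been applied. Barcodes with at least 1500 UMIs were kept, clustered (scanpy 1.11.5, 2000 variable genes, 40 components, 25 neighbours, Leiden resolution 1.5, 66 clusters) without the members, and named by markers. Scrublet marked 6404 cells (6.70%) as doublets, which were kept except in an alternative. UMIs of a type were summed per library with at least 20 cells and tested in edgeR 4.0.16 (quasi-likelihood, R 4.3.3) with protocol as a term; DESeq2 1.42.0 was an alternative. The fits were tested on simulated data. Protocol A is replicate 1 and B replicate 2 of each day, so the protocol term is also the replicate block. The study's own tests compared clusters of cells; sums per library were tested here because cells are not replicates. Singly described members were the Timp genes and those with at least 20 CPM in their highest type. Members and lists were chosen with earlier results of these data known. Intervals cover counting error only. Some items are not reported here.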

Additional observations from a re-analysis of the deposited data

Results flagged for a closer look

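Adamts12 in fibroblast-like cells of progression had 1 library apart from the other 3, D25 B with 114 CPM. D25 B was the only protocol B library among them, so that library and the protocol cannot be told apart. Of 27 groups of libraries examined, 1 held such a library, where chance gives about 1 in 20.

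Some members moved in opposite directions in 2 types, every DDC library against the D0 library of its protocol; none of these differences was tested. Values are log2 ratios of the mean CPM of DDC to that of D0 libraries, over all DDC libraries of the type; in fibroblast-like cells these are 6, of which 2 are protocol B and have no D0 library. Mmp8 was higher in all 10 DDC libraries of macrophage-like cells (2.31) and lower in all 9 of neutrophil-like cells (-1.43); edgeR gave 1.41 within the Gpnmb clusters (adjusted p = 0.66, with 3 UMIs at D0) and -0.75 within the Retnlg cluster (adjusted p = 0.46). Adamts1 was higher in all 10 of LSEC-like (0.42) and DC-like cells (2.62) and lower in all 4 of fibroblast-like cells (-0.46). Adamts4 was higher in LSEC-like (2.24) and DC-like cells (7.33) and lower in fibroblast-like cells (-0.91). Its D0 libraries of DC-like cells held 2 UMIs together, so 7.33 is not an exact value. The ratio of pooled counts had an exact 95% interval of 24.7 to 740. In fibroblast-like cells D0 was the library D0 A alone, which gave 40% of the Clec3b cluster. Adamts1 stood at 655 CPM in that cluster and 501 CPM in the Colec11 cluster, and Adamts4 at 299 and 121 CPM. The part of these clusters in the falls was not tested. Timp2 was higher in DC-like cells (1.71) and lower in fibroblast-like cells (-1.03), where the fit within the Colec11 cluster gave -0.62 (adjusted p = 0.70, edgeR). In DC-like cells macrophage markers summed to 109 to 285 CPM at D0 and 449.8 to 5727 CPM under DDC, and LSEC markers to 161 to 428 CPM and 390.3 to 1375 CPM, and their part in the DC-like values was not tested.

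Outside the 6 types, Adamts14, which trims procollagen, was highest in NK- or ILC-like cells (47.5 CPM), Timp2 in mesothelial-like cells (1576 CPM) and Timp3 in lymphatic endothelial-like cells (32.6 CPM), where Adamts9 (87.3 CPM) was highest too.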

How the results depend on the processing

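The counts of members called in the 6 contrasts between types stayed within 1.5 times under every alternative run. For DDC against D0, BEC-like cells gave 1 member, 5 with DESeq2, 8 without the filter on low counts, 0 with doublets removed, 0 in strict cells (without markers of another lineage), 0 in the Ces1d cluster, and 0 to 3 on leaving out 1 library. Macrophage-like cells gave 3, 5 with DESeq2, 8 without the filter, 1 in the Gpnmb clusters and 2 to 4 on leaving out 1 library. DC-like cells gave 4, 7 without the filter, 0 with doublets removed, 0 in strict cells, 1 in the cDC2-like clusters and 0 to 5 on leaving out 1 library, the 0 being without D0 B. LSEC-like cells gave 0, 2 with DESeq2 and 4 without the filter; neutrophil-like and fibroblast-like cells gave 0, and 1 and 3 without the filter. Without the replicate block (the protocol term) the count was 4 in BEC-like and 0 in DC-like cells, and no other count moved by over 1.5 times. For progression against onset the count without the filter was 2 in BEC-like, 3 in LSEC-like, 2 in neutrophil-like, 5 in macrophage-like, 2 in DC-like and 7 in fibroblast-like cells; with DESeq2 it was 3 in macrophage-like, 1 in DC-like and 4 in fibroblast-like cells, 1 in the Gpnmb clusters, and 0 to 1 on leaving out 1 library in LSEC-like, DC-like and fibroblast-like cells. The cause was not tested.

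Of 53 log2 fold changes followed, those that changed sign were Timp2 in neutrophil-like cells of at least 3000 UMIs (0.060, DDC against D0), Mmp13 in the Kupffer-marker clusters (1.74), and, for progression against onset, Mmp9 in strict macrophage-like cells (-0.18) and Adamts1 in DC-like cells with doublets removed (0.15) and strict (0.086). A further 27 changes of described members in their highest type had an unadjusted p of at least 0.05 and no fold is given; 22 of them changed sign under at least 1 alternative. In strict cells 26 of the 64 recovery ratios (a described member and a type with at least 20 UMIs in STOP and D19 B together) excluded 1, against 42, and those of Mmp12 in BEC-like (0.372), Adamts1 (0.414) and Adamts4 (0) in macrophage-like, and Mmp13 (0.641), Mmp14 (0.472) and Adamts9 (0.481) in DC-like cells turned below 1. Leaving out D0 A leaves no D0 library for BEC-like and fibroblast-like cells and was not run there. The cluster groups were chosen after seeing the data.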
